A study of Mus musculus with 9 samples.

Results

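Among the genes that were much lower in pro-B cells carrying EBF1ΔC, an EBF1 protein without its C-terminal domain, than in cells carrying full-length EBF1 (EBF1wt), 10 are described here across 9 Agilent mouse expression arrays: Asb2, Ttll11, Col26a1, Galnt14, Apbb1, Tmem40, Tmem132e, Fetub, Cd248 and Ell3. All probes whose gene name on the array was one of these, or an older name of it (Emid2 for Col26a1), were taken, which gave 13 of 41174 probes. All 13 passed the filter on dim probes, those of Apbb1, Fetub, Tmem40 and Tmem132e through the EBF1wt arrays alone, and the 10 genes were among 12054 genes tested. The genes were chosen because of the difference between EBF1ΔC and EBF1wt on these same arrays, so that difference is described here without a test. The rule has no numerical threshold: in the order of the fitted difference from EBF1wt to EBF1ΔC, the members were among the lowest 28 of 12054 genes, with 18 other genes among those 28. The places of Tmem132e, Tmem40, Apbb1 and Fetub in that order rest on EBF1ΔC signals not well above background and are not given. Ell3, at rank 28, stood at -2.89 on the log2 scale, between Gh at rank 27 (-2.89) and Rapgef3 at rank 29 (-2.83), neither of which is a member.

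EBF1 is a DNA-binding regulator needed for commitment to the B lineage. It binds DNA through an amino-terminal domain, dimerizes through a helix-loop-helix domain, and carries a C-terminal domain described as acting in transcriptional activation and in access to closed chromatin. In pro-B cells it works with E2A, FOXO1 and PAX5 on genes such as those of the surrogate light chain and of the pre-B-cell receptor.

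All 9 samples were pro-B cells transformed with the Abelson murine leukaemia virus (A-MuLV), of genotype Ebf1fl/fl;RERTCre on the C57Bl/6 background, so that 2 µM 4-hydroxytamoxifen (4-OHT) acted on a floxed Ebf1 allele in every group, controls included. EBF1wt cells (3 arrays) had received the retrovirus pmys-EBF1wt-IRES-GFP and EBF1ΔC cells (3 arrays) pmys-EBF1ΔC-IRES-GFP, in which GFP marks the transduced cells. In both, tamoxifen followed the retrovirus by 24 h, GFP-positive cells were sorted 5 days after tamoxifen, and RNA came from cells kept for more than 2 weeks longer. Mock cells (3 arrays) were mock-transduced, treated with tamoxifen and taken after 4 days, ahead of cell death. Replacement EBF1 thus came from a retroviral promoter and not from the Ebf1 locus, the cells are a virus-transformed line, and the number of independent lines or clones and the residues removed in EBF1ΔC were not given in the sources used here. One EBF1wt sample (replicate 3) lacks tamoxifen in its source name but has it in its description, and was kept in its group. Whether the 3 arrays of a group came from separate cultures was not stated, so p-values measure the spread of these samples, which may be technical.

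Values are log2 signals scaled so that 0 is the 75th percentile of the array (384 to 508 intensity units); a level is compared only between arrays for the same probe. The share of probes well above background was 50.7% to 56.9% per array. The 9 pro-B markers reported here (Cd79a, Cd79b, Vpreb1, Igll1, Rag1, Pax5, Ptprc, Il7r and Dntt) were above background on all 9 arrays, while Cd4, Cd8a, Ncr1, Mpo, Col1a1, Pdgfrb, Vcam1, Alb and Ahsg were above it on none. Other markers of other cells were seen on some arrays: of T-cell genes, Cd3e on all 9 and Cd3g on 2 Mock arrays; of the NK gene list, Klrb1c on 1 Mock, 2 EBF1wt and 2 EBF1ΔC arrays; and of myeloid genes, Csf1r on 2 Mock, 1 EBF1wt and 1 EBF1ΔC array, Itgam on 2 Mock arrays, and Cd14 on 2 Mock and 1 EBF1ΔC array. Of erythroid genes, Klf1 was seen on 1 EBF1wt and 1 EBF1ΔC array, and the alpha-globin gene Hba-a1 on 3 Mock arrays, 0 EBF1wt arrays and 1 EBF1ΔC array. Hba-a1 was called lower than Mock in both replaced groups, by at least 3.65-fold in EBF1wt and at -2.19 on the log2 scale in EBF1ΔC (limma adjusted p = 0.000505 and 0.000288). The part of these cells in the comparisons with Mock was not tested. The Mock arrays shared neither scan day nor slide with the other 6, so that in a comparison with Mock the presence of EBF1, scan day, slide, retrovirus, sorting and time after tamoxifen cannot be told apart. EBF1wt and EBF1ΔC shared a scan day and met on 2 slides (EBF1wt replicate 2 with EBF1ΔC replicate 3, and EBF1wt replicate 3 with EBF1ΔC replicate 1). The probe for the Ebf1 mRNA lay at 1.73, 1.47 and 1.17 on the Mock arrays, at 3.17, 2.87 and 3.16 on the EBF1wt arrays and at 3.81, 3.74 and 3.85 on the EBF1ΔC arrays, whereas a probe for an Ebf1 cDNA clone was above background on the Mock arrays only. The mean of the 2 probes was therefore lower than Mock in both replaced groups (-1.002 and -0.76), opposite to the mRNA probe. Whether either probe lies in the deleted exon or in the retroviral transcript is unknown here, so these signals do not check the deletion. On the mRNA probe EBF1ΔC stood 0.74 above EBF1wt (limma adjusted p = 0.0194), which is under 2-fold. The part of this difference in the other differences between the EBF1 forms was not tested.

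RefSeq promoters (GRCm38.p6, 250 bases before to 50 after a transcription start) were given for 7 of the 10 genes, 12 promoters in all; Ttll11, Col26a1 and Cd248 had none. They were searched for CCCNNGGG, the inner part of the palindromic EBF1 site, which is equal to its own reverse complement and so covers both strands. It was present in 2 of 12, beside 13.7% of all 32851 promoters. The full core, CCCNNGGG with a T before it and an A after it, was present in 0 of 12, beside 0.904% of all. Those 2 matches are shown in capitals in the 250 bases before the start, 5′ to 3′ in the direction of the gene. Below them stand the more upstream of the 2 Asb2 promoters, because Asb2 is the member that lay under Mock with EBF1ΔC, and the promoter of Tmem132e, one of the members seen above background on the EBF1wt arrays alone. CCCNNGGG is in neither of these.
Tmem40 (chr6:115759000-115759249, minus strand): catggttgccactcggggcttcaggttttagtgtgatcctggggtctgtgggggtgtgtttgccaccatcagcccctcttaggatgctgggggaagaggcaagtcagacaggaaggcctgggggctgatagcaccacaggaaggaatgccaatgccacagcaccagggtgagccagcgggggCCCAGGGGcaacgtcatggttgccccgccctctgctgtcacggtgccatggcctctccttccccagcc
Fetub (chr16:22919972-22920221, plus strand): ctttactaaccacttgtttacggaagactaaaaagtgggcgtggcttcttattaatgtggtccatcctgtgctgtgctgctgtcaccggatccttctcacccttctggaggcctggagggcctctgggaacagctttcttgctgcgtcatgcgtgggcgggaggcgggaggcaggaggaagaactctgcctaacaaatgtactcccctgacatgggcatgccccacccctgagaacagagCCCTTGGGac
Asb2 (chr12:103356002-103356251, minus strand): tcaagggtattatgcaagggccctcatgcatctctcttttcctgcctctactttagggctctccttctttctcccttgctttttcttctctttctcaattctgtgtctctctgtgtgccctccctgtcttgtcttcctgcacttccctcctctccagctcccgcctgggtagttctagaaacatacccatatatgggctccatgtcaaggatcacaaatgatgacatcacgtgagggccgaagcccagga
Tmem132e (chr11:82388650-82388899, plus strand): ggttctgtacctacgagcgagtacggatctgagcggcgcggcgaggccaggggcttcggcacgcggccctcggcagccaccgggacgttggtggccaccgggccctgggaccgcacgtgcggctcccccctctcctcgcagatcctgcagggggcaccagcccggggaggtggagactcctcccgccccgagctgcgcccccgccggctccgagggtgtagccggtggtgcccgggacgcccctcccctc
The Tmem40 match, CCCAGGGG, begins at position -68 from the start, and the Fetub match, CCCTTGGG, begins at position -10. A match in these letters describes the sequence and is not a binding site.

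Of the 10 members, 6 were measured in both EBF1 groups, and their differences from EBF1wt to EBF1ΔC ran from -5.37 (Asb2) to -2.89 (Ell3) on the log2 scale. The other 4 were not well above background on any EBF1ΔC array. Their differences are given as bounds against the lowest signal past that mark on each array. These bounds depend on that floor and are not guaranteed minima. With these 4 at their bounds the median of the 10 was -3.62, beside -0.01 (-0.00594) over all 12054 genes; the fitted values, background signals included, gave -4.13. All 10 met the call used for other genes (adjusted p under 0.05 in limma, with Benjamini-Hochberg adjustment over all genes, and at least 2-fold), which 1.33% of all genes met in the lower direction and 1.39% in the higher; since the members were chosen on this contrast, the count carries no evidence of its own. In all 10 the EBF1ΔC arrays lay below every EBF1wt array, as did 17.2% of all genes. As these are bulk samples, fewer cells with a transcript and less transcript per cell cannot be told apart. The size of the difference varied between arrays: EBF1wt replicate 2 was the highest EBF1wt array for 8 of the 10 genes, and EBF1ΔC replicate 3 the lowest EBF1ΔC array for 5. On the slide that holds those 2 arrays the difference was larger than on the other shared slide for 8 of 10 genes. These counts of arrays include signals not well above background.

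**Figure D1:**
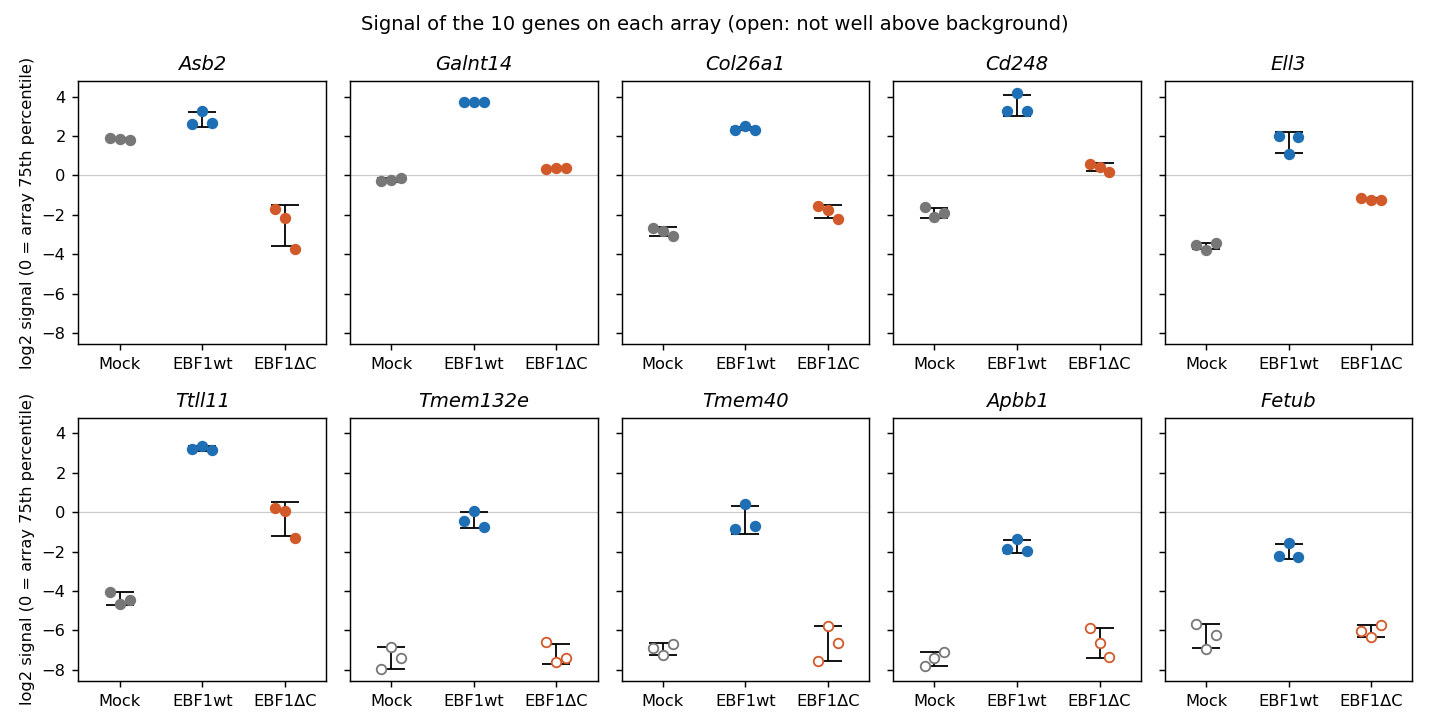
Each point is 1 array: the log2 signal of each gene, with 0 at that array's 75th percentile (y axis), for Mock, EBF1wt and EBF1ΔC, with bars for the mean ± SD of 3 arrays and open points for spots not well above background. EBF1wt points lie above EBF1ΔC points in every panel; Asb2 in Mock lies near EBF1wt, and Apbb1, Fetub, Tmem40 and Tmem132e are open in both other groups.

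The genes fell into 3 patterns by where EBF1ΔC stood against Mock. Asb2 was below Mock with EBF1ΔC, 5 genes measured on all 9 arrays (Ttll11, Cd248, Ell3, Col26a1 and Galnt14) lay above Mock with EBF1ΔC but below EBF1wt, and 4 genes (Tmem132e, Tmem40, Apbb1 and Fetub) were well above background on the EBF1wt arrays only. With EBF1ΔC, Ttll11, Cd248, Ell3 and Col26a1 were called higher than Mock, and Galnt14 stood higher by under 2-fold. Asb2 was high in Mock. Whether the 10 genes need the C-terminal domain was not tested, and they are not named so here.

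Asb2 encodes the substrate-recognition subunit of a cullin-5 ubiquitin ligase with ankyrin repeats and a SOCS box, known for targeting filamins. It was measured by 1 probe (mm9 chr12:104559752-104559811, minus strand). Its log2 signal was 1.92, 1.86 and 1.81 on the Mock arrays, 2.59, 3.27 and 2.68 on the EBF1wt arrays, and -1.72, -2.15 and -3.72 on the EBF1ΔC arrays. The 3 groups did not overlap, EBF1wt being highest and EBF1ΔC lowest, and the EBF1ΔC arrays were the most scattered. EBF1ΔC was 41.4-fold below EBF1wt (log2 -5.37 ± 0.45, SE), with -6.98 and -4.40 on the 2 shared slides. Against Mock, EBF1wt stood 0.98 higher, whereas EBF1ΔC was 21.0-fold lower (log2 -4.39 ± 0.45, SE, limma adjusted p = 6.9e-05). Asb2 was the only member called lower than Mock with EBF1ΔC, a call 11.9% of all genes received. The EBF1ΔC arrays that entered this test also entered the choice of the gene. The same holds for each p-value between EBF1ΔC and Mock given below for another member, so none of these is an independent test.

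Ttll11, a tubulin polyglutamylase of the tubulin tyrosine ligase-like family, had the largest difference between EBF1wt and Mock of the members measured on all 9 arrays. Its signal (mm9 chr2:35607167-35607226) was -4.04, -4.65 and -4.47 in Mock, 3.18, 3.36 and 3.15 in EBF1wt, and 0.22, 0.04 and -1.34 in EBF1ΔC. EBF1ΔC replicate 3 was well below the other 2 EBF1ΔC arrays, and no groups overlapped. The EBF1wt mean was 196-fold above Mock (log2 7.61), the EBF1ΔC mean 16.3-fold above Mock (log2 4.02 ± 0.37, SE, limma adjusted p = 4.0e-05) and 12.04-fold below EBF1wt (log2 -3.59). Over the alternative settings the log2 difference between EBF1wt and Mock ran from 5.23 to 8.32.

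Galnt14 belongs to the polypeptide N-acetylgalactosaminyltransferases, which begin mucin-type O-glycosylation. On its brighter probe (mm9 chr17:73843114-73843173) it had the least scatter of the members within EBF1wt and within EBF1ΔC, at -0.31, -0.23 and -0.11 in Mock, 3.70, 3.70 and 3.72 in EBF1wt, and 0.35, 0.36 and 0.37 in EBF1ΔC. EBF1ΔC lay 10.2-fold below EBF1wt (log2 -3.35), with nearly equal differences on the 2 shared slides (-3.33 and -3.37). It lay 0.58 above Mock (limma adjusted p = 0.000191), which is under 2-fold and so not called, although its second probe, which was not well above background in Mock, was at least 2.19-fold higher with EBF1ΔC than Mock. With the mean of both probes the difference from Mock was 1.21, and with scaling to the array median 1.12, both past the call.

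Among the genes for cell-surface and extracellular proteins, Cd248 (endosialin), a C-type lectin-like transmembrane protein known from stromal cells, had 2 probes. The brighter one (mm9 chr19:5070558-5070617) gave -1.62, -2.11 and -1.93 in Mock, 3.26, 4.18 and 3.25 in EBF1wt, and 0.60, 0.44 and 0.19 in EBF1ΔC. EBF1ΔC lay between the 2 other groups on every array, 8.93-fold below EBF1wt (log2 -3.16) and 4.91-fold above Mock (log2 2.30 ± 0.25, SE, limma adjusted p = 0.000109). The second probe gave -3.29 and 1.87 for the same differences. The stromal markers Col1a1, Pdgfrb and Vcam1 were above background on no array, Cxcl12 on 1 EBF1ΔC array, and Col1a2 on 3 Mock, 1 EBF1wt and 2 EBF1ΔC arrays.

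Col26a1, a collagen with an EMI domain, was closest of all members to their median profile (root mean square difference 0.17 over the 9 arrays, after centring each gene). Its signal (mm9 chr5:137217650-137217709) was -2.66, -2.83 and -3.08 in Mock, 2.33, 2.496 and 2.33 in EBF1wt, and -1.56, -1.76 and -2.21 in EBF1ΔC. EBF1ΔC was 18.7-fold below EBF1wt (log2 -4.22) and close to Mock, from which it differed by 1.01 ± 0.17 (SE, limma adjusted p = 0.00106), just past 2-fold. Values of 0.90 without Mock replicate 3, 0.87 without EBF1ΔC replicate 1, 0.97 without EBF1ΔC replicate 2 and 0.73 in the authors' deposited values all fell short of the call.

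Tmem132e and Tmem40, which encode transmembrane proteins, and Fetub, a liver-secreted cystatin-family inhibitor of the protease ovastacin, were well above background on all 3 EBF1wt arrays and on none of the other 6. Tmem132e (mm9 chr11:82259312-82259371) read -0.47, 0.05 and -0.77 in EBF1wt, beside signals of -7.95 to -6.84 in Mock and -7.59 to -6.60 in EBF1ΔC that were not well above background. Measured against the lowest signal well above background on each array, Tmem132e was at least 31.9-fold lower in EBF1ΔC than EBF1wt. Tmem40 (mm9 chr6:115679213-115679272) read -0.87, 0.43 and -0.72 in EBF1wt and was at least 32.1-fold lower in EBF1ΔC; its second, dimmer probe gave at least 5.89-fold. Fetub (mm9 chr16:22939736-22939795) read -2.21, -1.55 and -2.26 in EBF1wt and was at least 10.47-fold lower in EBF1ΔC. In the authors' deposited values the differences of Tmem132e, Tmem40 and Fetub from EBF1wt to EBF1ΔC were smaller than these bounds, at -2.31, -2.28 and -1.001 on the log2 scale. In all 3 genes EBF1wt replicate 2 was the highest array. The hepatic markers Alb and Ahsg, the latter a close relative of Fetub, were above background on no array.

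The remaining members act in or near transcription. Ell3 is a member of the ELL family of RNA polymerase II elongation factors that is found in testis and B cells. Its signal (mm9 chr2:121264902-121264961) was -3.52, -3.76 and -3.45 in Mock, 1.98, 1.08 and 1.95 in EBF1wt, and -1.15, -1.25 and -1.25 in EBF1ΔC. Here EBF1wt replicate 2 was the lowest EBF1wt array, unlike in 8 of the members. EBF1ΔC was 7.39-fold below EBF1wt (log2 -2.89) and 5.13-fold above Mock (log2 2.36 ± 0.22, SE, limma adjusted p = 4.6e-05). Apbb1 encodes FE65, an adaptor that binds the intracellular tail of APP and the acetyltransferase TIP60. It read -1.86, -1.38 and -1.97 in EBF1wt (mm9 chr7:112708067-112713539, a probe whose mapped span covers an intron), was not well above background on the other 6 arrays, and was at least 12.6-fold lower in EBF1ΔC than EBF1wt (log2 -1.26 in the authors' deposited values).

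The second comparison gives the distance of these genes from Mock in EBF1wt. These groups also differ in scan day, slide, retrovirus, sorting and time after tamoxifen. Of the 10 genes, 9 met the call as higher in EBF1wt than Mock, which 6.6% of all genes did, and Asb2 did not. This count is a description too, because the EBF1wt arrays chose the genes. In all 10 the EBF1wt arrays lay above every Mock array, as for 42.7% of all genes (29.7% lay below). The median difference was 5.03 with the 4 genes not above background in Mock at their bounds, beside 0.12 over all genes, and the 6 measured in both groups ran from 0.98 to 7.61. Cd248 stood 43.9-fold, Ell3 37.9-fold, Col26a1 37.7-fold and Galnt14 15.2-fold above Mock. The dim genes stood at least 32.8-fold (Tmem40), 32.6-fold (Tmem132e), 12.9-fold (Apbb1) and 10.7-fold (Fetub) above it, on bounds that are not guaranteed minima. In the same order, their lowest differences over the alternative settings were 2.32, 2.35, 1.35 and 1.04 on the log2 scale. These are smaller than the bounds (5.03, 5.03, 3.68 and 3.42).

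Between EBF1ΔC and Mock, 4 of 10 genes were called higher (Ttll11, Ell3, Cd248 and Col26a1, in falling order of size), beside 6.25% of all genes, 1 was called lower (Asb2), and 5 were not called. This comparison uses the EBF1ΔC arrays of the first comparison and the Mock arrays of the second, so the 3 sets of values are not independent. Because the EBF1ΔC arrays also entered the choice of the genes, these counts are a description. The groups did not overlap for 6 genes: 5 were higher on every EBF1ΔC array, beside 41.3% of all genes, and Asb2 was lower, beside 30.3%. The share of the log2 distance from Mock to EBF1wt that EBF1ΔC reached was 52.9% for Ttll11, 44.97% for Ell3, 42.1% for Cd248, 19.3% for Col26a1 and 14.7% for Galnt14. These shares hold for the reported scaling. Over the alternative settings the distance of EBF1wt from Mock ran from 5.23 to 8.32 for Ttll11 and from 3.57 to 5.95 for Ell3. That of EBF1ΔC from Mock ran from 2.07 to 4.57 and from 1.30 to 2.91. On the linear scale EBF1ΔC signal was 13.5% of the EBF1wt signal for Ell3, 11.2% for Cd248, 9.83% for Galnt14, 8.31% for Ttll11, 5.35% for Col26a1 and 2.41% for Asb2. No fold between EBF1ΔC and Mock is given here for the 4 genes that were not well above background in either group.

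**Figure D2:**
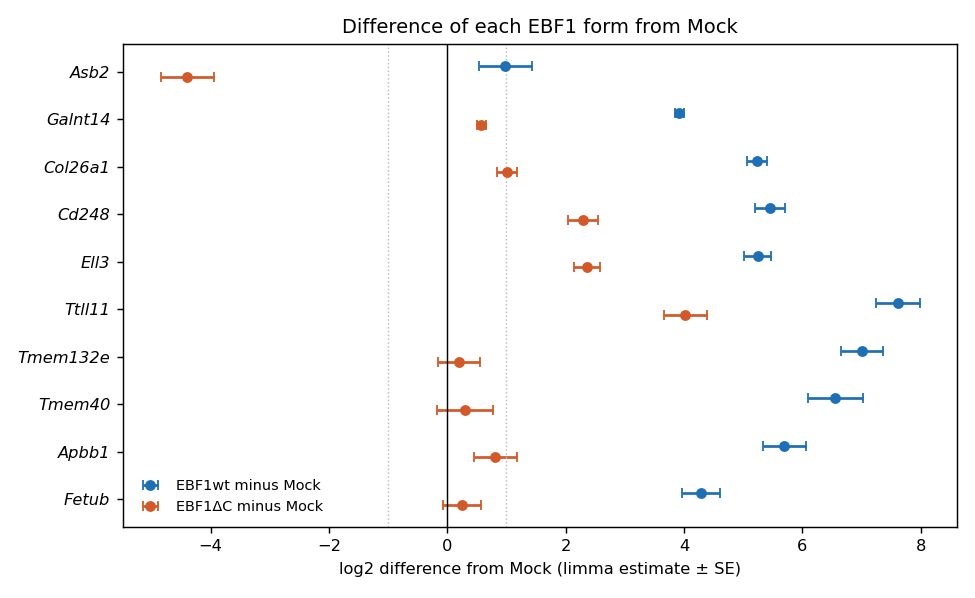
Log2 difference from Mock (x axis, limma estimate ± SE, 3 arrays per group) of each gene in EBF1wt and in EBF1ΔC; dotted lines mark 2-fold. Asb2 alone lies left of 0 with EBF1ΔC (-4.39), Ttll11, Ell3 and Cd248 lie clearly right of it, and for Tmem132e, Tmem40, Apbb1 and Fetub the Mock and EBF1ΔC signals were not well above background, so that their EBF1wt points are not exact differences and their EBF1ΔC points compare background with background.

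The genes next to the members on the chromosome were not used in the choice. Of 40 protein-coding genes, the nearest 2 on each side of each member in the RefSeq gene table, 25 could be tested, and 2 of these fell in EBF1ΔC against EBF1wt while none rose, beside 2.71% of all genes called in either direction. The median over the 25 was -0.05, beside -0.00594 over all genes. These 2 were Otub2, next to Asb2, and Dab2ip, next to Ttll11; the tested neighbours of the other 8 members were not called.

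Otub2, a deubiquitinase of the ovarian tumour family, lies on the plus strand next to Asb2 on the minus strand, so that the 2 genes run away from each other. Its brightest probe (mm9 chr12:104644151-104644210) read -0.65, -0.95 and -0.85 in Mock, 0.86, 1.13 and 0.72 in EBF1wt, and -1.59, -1.77 and -2.14 in EBF1ΔC. The groups did not overlap and had the same order as those of Asb2. Otub2 fell by 2.74 from EBF1wt to EBF1ΔC (SE 0.16, 6.66-fold, limma adjusted p = 8.5e-05), with -3.27 and -2.31 on the 2 shared slides. It rose by 1.72 from Mock to EBF1wt (limma adjusted p = 4.5e-05) and fell by 1.02 from Mock to EBF1ΔC (limma adjusted p = 0.000786), the last a call that was lost in 8 of 22 alternative settings, among them leaving out Mock replicate 1 (-0.93) or EBF1ΔC replicate 3 (-0.86). Its probes disagree: a second mRNA probe gave -1.99 from EBF1wt to EBF1ΔC (limma adjusted p = 0.00829 with each probe tested alone), while a probe for an Otub2 cDNA clone gave 0.06 (adjusted p = 0.919). Against Mock the cDNA-clone probe stood 1.13 higher with EBF1ΔC (limma adjusted p = 0.00281, each probe tested alone), opposite to the brightest probe and to the second mRNA probe (-0.82), and the mean of the 3 probes was -0.24.

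Dab2ip encodes a Ras GTPase-activating scaffold protein. It read 1.27, 1.27 and 1.33 in Mock, 3.27, 3.13 and 3.28 in EBF1wt, and 0.97, 0.97 and -0.40 in EBF1ΔC (mm9 chr2:35586397-35586456). EBF1ΔC replicate 3 was the lowest array, as for Ttll11, and all EBF1ΔC arrays lay below Mock. Dab2ip fell by 2.71 from EBF1wt to EBF1ΔC (SE 0.32, 6.54-fold, limma adjusted p = 0.00206), with -3.52 and -2.32 on the shared slides, and rose by 1.94 from Mock to EBF1wt (limma adjusted p = 0.000875). Its difference of -0.77 between EBF1ΔC and Mock was not called (limma adjusted p = 0.0619), but was called at -1.002 without EBF1ΔC replicate 2. The calls of Otub2 and Dab2ip between EBF1ΔC and EBF1wt were kept in 23 of 23 alternatives, at -2.89 to -1.56 and -2.94 to -2.26. Of 4 Dab2ip promoters 1 held CCCNNGGG (CCCGTGGG, at position -73), and none of the 3 Otub2 promoters did.

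**Figure D3:**
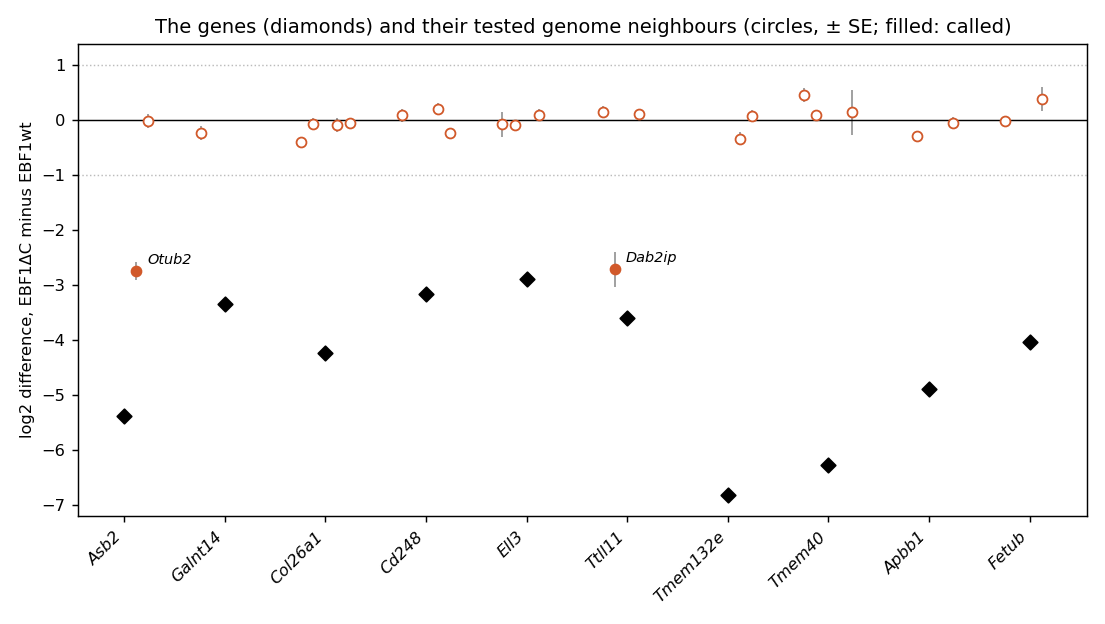
Log2 difference from EBF1wt to EBF1ΔC (y axis) of each gene (diamonds, the fitted values it was chosen by, against background in EBF1ΔC for Tmem132e, Tmem40, Apbb1 and Fetub) and of its tested neighbours (circles with ± SE, filled where called), grouped along the x axis; dotted lines mark 2-fold. Otub2 (-2.74) and Dab2ip (-2.71) are the filled circles, while the other 23 lie within 2-fold.

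Against Mock, 8 of the 25 neighbours were called in EBF1wt, 4 in each direction, and 5 in EBF1ΔC, 2 higher and 3 lower, beside 19.5% and 18.1% of all genes. Beside Col26a1, Myl10, a myosin light chain gene, rose by 2.91 with EBF1wt and 2.84 with EBF1ΔC (limma adjusted p = 4.6e-07 and 6.3e-07), and the homeodomain factor Cux1 rose by 1.83 and 1.44 (limma adjusted p = 1.3e-06 and 5.6e-06). The mean of its probes put Cux1 at 0.85 with EBF1ΔC, short of the call. Between the EBF1 forms Myl10 differed by -0.06 ± 0.12 (SE) and Cux1 by -0.39 ± 0.09 (limma adjusted p = 0.0332), neither past 2-fold. The 4 genes lower in EBF1wt than Mock were Ggta1, Hrg, Tmem151a and Catsper2. Hrg was not well above background on any EBF1wt array, and its bound, at least 1.64-fold lower, is under 2-fold. Each of these 4 calls was lost with scaling to the array median, which moves the median of all genes by 0.71 in this comparison. All but that of Ggta1 were also lost with the authors' values, at -0.03 (Hrg), -0.21 (Tmem151a) and -0.62 (Catsper2).

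The relatives of the members were taken by protein family from lists that hold 95 genes in all, 94 of them on the array and 56 of them tested. Between EBF1ΔC and EBF1wt 1 of 56 was called, beside 2.71% of all genes, and their median was 0.03. Against Mock, 9 were called in EBF1wt (3 higher, 6 lower) and 10 in EBF1ΔC (4 higher, 6 lower), beside 19.5% and 18.1% of all genes, with medians of 0.14 and 0.11 beside 0.12 and 0.10.

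The relative that changed between the EBF1 forms was Emid1, which like Col26a1 carries an EMI domain and collagen repeats. Emid1 (mm9 chr11:5006389-5006448) read -1.74, -1.76 and -1.52 in Mock, -1.53, -1.07 and -1.70 in EBF1wt, and -3.76, -3.58 and -3.80 in EBF1ΔC. Mock and EBF1wt overlapped, and every EBF1ΔC array was below both. Emid1 fell by 2.28 from EBF1wt to EBF1ΔC (SE 0.16, 4.86-fold, limma adjusted p = 0.000175; -2.73 and -2.07 on the shared slides) and stood at -2.04 from Mock to EBF1ΔC (limma adjusted p = 1.7e-05), while EBF1wt and Mock differed by 0.24 (limma adjusted p = 0.212). With the authors' values these differences were -0.99 and -0.62, under 2-fold, and with normexp and quantile normalization -1.08 and -0.71.

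In the ASB and cullin-5 list, 0 of 11 tested genes were called between EBF1ΔC and EBF1wt, with Asb3 at -0.09. Against Mock, Asb16 rose by 1.22 with EBF1ΔC (limma adjusted p = 0.000316), a call lost with the authors' values (0.27). Asb16 was well above background on only 1 Mock array. In the tubulin tyrosine ligase-like list 0 of 6 were called between the EBF1 forms, while against Mock 2 rose and 1 fell with each form. Those that rose were Ttl and Ttll1: Ttl by 2.40 and 2.75 (limma adjusted p = 0.00042 and 0.000215) and Ttll1, a glutamylase subunit, by 1.73 and 1.97 (limma adjusted p = 3.0e-06 and 1.7e-06). Unlike for Ttll11, their EBF1ΔC values stood slightly above those of EBF1wt, by 0.35 ± 0.35 (SE) and 0.24 ± 0.10. Ttl was well above background on only 1 Mock array, and its calls were lost with the authors' values (0.54 and 0.72). The gene that fell was Ttll3, a tubulin glycylase, by 1.58 with EBF1wt and 1.72 with EBF1ΔC (limma adjusted p = 0.000266 and 0.000184); the first fell short of the call with scaling to the array median (-0.88).

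None of the 11 GalNAc-transferase genes tested was called between EBF1ΔC and EBF1wt, Galnt2 standing at -0.45. Galnt10 stood 1.01 above Mock with EBF1ΔC (limma adjusted p = 9.8e-05). It fell short of the call at 0.99 without Mock replicate 1, 0.87 with quantile normalization and 0.69 with the authors' values. The FE65 relatives Apbb2 (-0.30) and Apbb3 (0.03) were not called, and App, the partner of FE65, was above background on no array. Lrp1, a receptor that binds APP, was seen on the Mock arrays only and was at least 1.89-fold lower in EBF1wt and 1.97-fold lower in EBF1ΔC. Both calls were lost with scaling to the array median (-0.63 and -0.96) and with the authors' values (-0.03 and -0.04). Tmem132a was the one tested relative of Tmem132e (0.10). Thbd (0.12) and Cd93 (0.16), of the same lectin group as Cd248, were not called either. In the ELL and super elongation complex list all 13 genes were measured and 0 were called between the EBF1 forms, Ell at 0.03 and Ell2 at 0.62 (limma adjusted p = 0.0947). Ell2 fell against Mock by 1.66 with EBF1wt and 1.04 with EBF1ΔC (limma adjusted p = 0.000163 and 0.00212), opposite in sign to Ell3; both calls were lost with scaling to the array median (-0.96 and -0.49), and that with EBF1ΔC also without Mock replicate 1 (-0.93). Ccnt2, a cyclin T subunit of P-TEFb, fell against Mock by 1.45 and 1.44 (limma adjusted p = 5.0e-05 and 5.5e-05), and Ice2, of the little elongation complex, by 1.20 with EBF1ΔC (limma adjusted p = 7.5e-05). With scaling to the array median these stood at -0.75, -0.89 and -0.65, under 2-fold. The mean of its probes put Ccnt2 at -0.60 and -0.55, also under 2-fold. Of the EMI-domain and cystatin lists, Emilin3 fell by 1.31 and Cst7 rose by 1.004 with EBF1wt against Mock (limma adjusted p = 0.00118 and 0.00106), both short of the call with the authors' values (-0.09 and 0.87). Emilin3 was well above background on only 1 EBF1wt array. Cst7 was also short of it without Mock replicate 2 (0.98) or 3 (0.98) or EBF1wt replicate 1 (0.93) or 2 (0.95).

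A list of 17 early B-lineage genes widely described as activated by EBF1, of which 16 were tested, shows how such genes stood with each form. Against Mock 9 of 16 rose and 2 fell with EBF1wt, beside 6.6% and 12.9% of all genes, and the median was 1.08 beside 0.12. With EBF1ΔC 7 rose and 2 fell, beside 6.25% and 11.9% of all genes, and the median was 0.95 beside 0.10. The 2 that fell with each form were Blk, a Src-family kinase, seen on the Mock arrays only and at least 5.01-fold lower in EBF1wt and 5.32-fold lower in EBF1ΔC, and Cr2, a complement receptor, by 1.66 and 2.62 (limma adjusted p = 0.0016 and 0.000149). Blk fell short of the call with the authors' values (-0.56 and -0.54), and so did Cr2 with EBF1wt (-0.89). The surrogate light chain genes, of which Vpreb1 and Vpreb2 are near-identical and may not be told apart by their probes, rose with both: Vpreb1 by 3.50 and 3.59, Vpreb2 by 4.69 and 4.39 and Igll1 by 6.97 and 5.89 (limma adjusted p from 8.5e-09 to 3.6e-08). Between EBF1ΔC and EBF1wt the median was -0.12 beside -0.00594 over all genes, and 2 of 16 were called, beside 2.71% of all genes: Igll1 fell by 1.08 (limma adjusted p = 0.00168) and Rag1 rose by 2.14 (limma adjusted p = 0.0292). Rag1 fell short of the call without Mock replicate 3 (2.14) or without any one EBF1ΔC replicate (1.90 to 2.27), as did Igll1 with the mean of its probes (-0.79).

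By root mean square difference of centred log2 signals over the 9 arrays, the 5 other genes nearest to the median profile of the members were Cnn1 (0.65), Slc47a1 (0.72), Elfn1 (0.74), Sytl3 (0.77) and Sertad4 (0.78). These encode calponin 1, a multidrug and toxin extrusion transporter, a leucine-rich repeat transmembrane protein, a synaptotagmin-like Rab effector and a SERTA-domain protein. Among the members themselves this difference ran from 0.17 for Col26a1 to 2.43 for Asb2. Asb2, Ttll11 (1.29), Tmem132e (1.13) and Tmem40 (1.01) were each less like the members' median than any of these 5. The values of Tmem132e and Tmem40 include signals not well above background. Cnn1, Slc47a1 and Sytl3 were well above background on the EBF1wt arrays only, whereas Elfn1 was also above it on 3 Mock arrays (-4.41 to -4.23) and 2 EBF1ΔC arrays, and Sertad4 on all 9. Sertad4 read -3.71, -4.35 and -4.17 in Mock, 0.43, 0.08 and 0.34 in EBF1wt, and -1.83, -1.89 and -2.87 in EBF1ΔC, an intermediate level as in Ttll11, Ell3 and Cd248. These genes were selected for this profile, so their differences carry no test.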

How the data were processed

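RNA of 9 samples was labelled with Cy3 and hybridised in 1 colour. The values used are spot intensities processed by Agilent Feature Extraction, background-subtracted per the file headers and not normalized between arrays; the headers name version 10.5.1.1 and the submitters' processing notes 9.1. The authors also deposited log2 values (array medians 6.74) whose normalization is not given in the sources used here, which served as an alternative. Of 45018 spots, 43379 were not controls. Outlier spots (73 to 163 per array) were left out. Signals were scaled to the 75th percentile of each array, then taken to log2, and spots of a probe were averaged. Probes were kept if all 3 arrays of some group had them well above background (22355 of 41174; 20047 with a gene). Genes were named through RefSeq by accession (27479), symbol (5478) or synonym (679), or from the files (1262). The probe with the highest mean stood for its gene. Positions of probes follow the files' mm9 coordinates; exon and UTR annotation of that build was not used here.

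A single limma model (version 3.58.1, with statmod 1.5.0 and R 4.3.3; tables were read with the package data.table, version 1.17.8) held all 9 arrays and a mean for each of 3 groups, with moderated two-sided tests and Benjamini-Hochberg adjustment over 12054 genes; a call needs an adjusted p under 0.05 and at least 2-fold. The procedure was tested on simulated data. Some groups had all 3 arrays short of the well-above-background mark. Each such array was set to the lowest signal past that mark, or kept its own signal where that was higher. Folds written as at least, and the bounds, rest on this floor. Spots short of the mark can read above the floor, so these are not guaranteed lower bounds. No 2 arrays were duplicates. The number of arrays limits the precision. The members and lists were chosen with earlier results of these data known. Named genes are the members, Ebf1, called genes of each list and the neighbours (at most 3 per comparison and list), the nearest relative of each member, and the 5 genes nearest to the members' median profile; Rapgef3 and Gh mark the edge of the member list, and Tmem151a, Hrg, Vpreb1 and Cr2 complete a count or group, which were named after their values were seen. Alternatives changed the scaling, background correction, filter, probe summary, slide, replicate number, weights, moderation and samples. Results for 2 marker genes are not reported here.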

Additional observations from a re-analysis of the deposited data

Results flagged for a closer look

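Asb2 stood above Mock with EBF1wt and below Mock with EBF1ΔC: every EBF1wt array was higher than every Mock array (mean difference 0.98, log2) and every EBF1ΔC array lower (-4.39). The difference between these 2 effects was not tested, because it is the contrast that chose the gene. Otub2, its neighbour on the chromosome, stood on its brightest probe at 1.72 with EBF1wt and -1.02 with EBF1ΔC against Mock, and here the difference between the effects is the EBF1ΔC to EBF1wt contrast (-2.74, limma adjusted p = 8.5e-05). Otub2 was flagged for this order of the groups on the same arrays, so that p-value is no independent test of the order. A probe for an Otub2 cDNA clone stood above Mock with EBF1ΔC instead (1.13, limma adjusted p = 0.00281, each probe tested alone), and the mean of the probes was -0.24. The Asb2 difference between EBF1wt and Mock met the call in 1 of 22 alternatives, scaling to the array median (1.68).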

How the results depend on the processing

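Of 469 recomputed counts, 426 stayed within 1.5 times the reported count and 43 did not. Scaling to the array median shifted the median of all genes by -0.16 (EBF1ΔC to EBF1wt), 0.71 (Mock to EBF1wt) and 0.55 (Mock to EBF1ΔC). It gave 797 genes lower and 4593 higher in EBF1wt than Mock (reported scaling 1550 and 796) and 856 and 3078 in EBF1ΔC than Mock (1433 and 753), and 2 and 22 relatives between EBF1ΔC and EBF1wt and between EBF1wt and Mock. Normexp with quantile normalization, and the authors' values, gave 63 and 61 genes lower and 66 and 64 higher in EBF1ΔC than EBF1wt (160 and 167), 642 and 621 lower and 395 and 394 higher in EBF1wt than Mock, and 650 and 627 lower and 398 and 392 higher in EBF1ΔC than Mock. In the same order they gave 5 and 5 relatives and 5 and 5 neighbours in EBF1wt against Mock, and 4 and 5 relatives in EBF1ΔC against Mock; normexp called 7 EBF1 target genes in EBF1wt against Mock, and the authors' values 0 relatives between the EBF1 forms. With only probes above background on all 9 arrays, 105 genes were higher in EBF1ΔC than EBF1wt, 860 and 843 were lower than Mock, and the 6 members left were all lower in EBF1ΔC and 5 of them higher in EBF1wt than Mock. Slide as a fixed block gave 69 and 66 genes and 0 EBF1 target genes; a fit of only the 2 groups gave 99 genes higher. EBF1 target genes between the EBF1 forms numbered 1 without a filter, with the mean of probes and with 2 groups alone, and 1 to 2 when 1 array was left out (1 without Mock replicate 3 or any EBF1ΔC replicate). Ebf1 reversed with the mean of its probes (-1.002 and -0.76 against Mock).

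Correlations between same-numbered arrays of 2 groups ran from -0.18 to 0.12, so no pairing by replicate number was seen. The 2 pairs of arrays on a shared slide gave -0.08 and 0.12. As a shared slide did not show either, these correlations cannot decide whether the samples were paired. With the replicate block, 1 EBF1 target gene was called between the EBF1 forms, as Rag1 lost its call (2.14), and no other reported count moved by over 1.5 times. Slide as a random block, added after seeing the data, gave 161 genes lower and 170 higher in EBF1ΔC than EBF1wt and moved no count past 1.5 times.

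All members kept the sign of their EBF1ΔC to EBF1wt difference. Ttll11 fell short of the call with slide as a fixed block (-3.81). For Tmem132e, Tmem40, Apbb1 and Fetub the authors' values gave -2.31, -2.28, -1.26 and -1.001, smaller than the bounds (-4.995, -5.004, -3.65 and -3.39 on the log2 scale); the EBF1ΔC signals of these 4 genes were not well above background. The cause was not tested. Apbb1 passed the call between EBF1ΔC and Mock with scaling to the median (1.36) and without EBF1ΔC replicate 3 (1.19), on signals not well above background in either group.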
